A study of Mus musculus with 16 samples.

Results

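RNA levels of 10 genes that hold, fold and sort mitotic chromosomes were examined in the E15.5 mouse cortex. They were chosen by name from the 51912 genes listed in the count tables, by their membership of the chromosomal passenger complex (*Aurkb*, *Incenp*, *Birc5* and *Cdca8*), as the shugoshin *Sgo1*, or as subunits of cohesin (*Smc1a* and *Smc3*) and condensin (*Smc2*, *Smc4* and *Ncapd2*). All 10 had counts in every mouse. The study compared 4 *Knl1* cKO, 4 *Knl1*;*Trp53* dKO and 7 ctrl mice at E15.5 by UMI RNA-seq of dissected cortex, to follow what loss of a kinetochore scaffold does with and without the tumor suppressor p53. In cKO, *hGFAP-Cre*, a transgene that drives Cre from the human *GFAP* promoter in cortical NPCs, deleted conditional alleles of *Knl1* (named *Casc5* in the labels). In dKO, it deleted conditional alleles of both *Knl1* and *Trp53*. Of the ctrl mice, 5 were labelled *Knl1* wild type (2, 6, S1, S3 and T3) and 2 heterozygous (T4 and T5), and whether they carried Cre or a conditional *Trp53* allele is not given in the sources used here. The cKO mice were 5, 7, S2 and F3, and the dKO mice T2, T8, F1 and F7. Cells outside the *hGFAP-Cre* lineage, such as interneurons, keep the genes in both mutants and are part of the same tissue. The mice came from 4 litters. Litters 1 and 2 held ctrl and cKO mice, litter 3 ctrl and dKO mice, and litter 4 a cKO mouse and 2 dKO mice with no ctrl littermate. Litter 3 and litter 4 were batch 3 of the labels, batch 2 was ctrl mouse S1 alone, and the other 6 mice were batch 1.

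Mitosis depends on proteins that tie sister chromatids together, compact them and check their attachment. The chromosomal passenger complex is built on INCENP, which activates the kinase Aurora B, while survivin (BIRC5) and borealin (CDCA8) bring the complex to the centromere, where it releases faulty microtubule attachments. KNL1, the protein lost in these mice, docks the kinase BUB1 at the outer kinetochore, and the histone mark BUB1 writes is read by shugoshin, which shields centromeric cohesin and helps to recruit the passenger complex. Cohesin is a ring closed by SMC1A and SMC3, and it also folds interphase chromatin in neurons, which do not divide. Condensin is built on SMC2 and SMC4, and NCAPD2 is a subunit of its condensin I form. In embryonic cortex the dividing cells include the NPCs of the germinal zones, and the study also reports proliferating microglia at this age.

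Depth ranged from 399832 to 3266227 counts in ctrl mice, from 4178461 to 8800987 in cKO mice and from 552186 to 5396803 in dKO mice, so that the shallowest cKO mouse was deeper than any ctrl mouse. CPM values below are counts per 1000000, scaled by TMM (edgeR's trimmed mean of M values). A single count stood for 2.33 CPM in ctrl mouse T3 and for 0.114 CPM in cKO mouse S2, whose 2 libraries were added together. These libraries gave similar counts for the genes described here, for example 78 and 75 for *Aurkb* and 463 and 475 for *Smc1a*. Intervals for single mice are exact Poisson 95% intervals and cover counting error only.

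The stretch around the start of 7 of the 10 genes was found among RefSeq promoters of GRCm38.p6, from 250 bases before the start to 50 after. The genes without an entry were *Aurkb*, *Incenp* and *Smc4*. Motifs of cell cycle genes were searched on both strands. The first was the CHR word TTTGAA, known as the site of the DREAM and MuvB complexes. The second was the CCAAT box, the site of NF-Y, which reads ATTGG when inverted. The E2F words were TTTCGCGC or, as an alternative spelling, TTTGGCGC. Over all 32851 promoters of this length, 17.9% held the CHR word, 37.4% a CCAAT box and 0.813% an E2F word. Among the 7, *Cdca8*, *Smc2* and *Ncapd2* held a CHR word, and these 3 are shown with every motif in capitals. The start site is position 1.
Cdca8, chr4:124936868-124937167, minus strand: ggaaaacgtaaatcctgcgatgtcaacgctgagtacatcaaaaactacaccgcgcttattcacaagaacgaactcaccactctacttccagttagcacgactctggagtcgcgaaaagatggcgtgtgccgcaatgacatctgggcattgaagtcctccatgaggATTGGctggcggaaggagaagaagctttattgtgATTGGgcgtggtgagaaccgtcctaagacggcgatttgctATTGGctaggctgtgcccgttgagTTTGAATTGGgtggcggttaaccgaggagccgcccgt
Smc2, chr4:52438971-52439270, plus strand: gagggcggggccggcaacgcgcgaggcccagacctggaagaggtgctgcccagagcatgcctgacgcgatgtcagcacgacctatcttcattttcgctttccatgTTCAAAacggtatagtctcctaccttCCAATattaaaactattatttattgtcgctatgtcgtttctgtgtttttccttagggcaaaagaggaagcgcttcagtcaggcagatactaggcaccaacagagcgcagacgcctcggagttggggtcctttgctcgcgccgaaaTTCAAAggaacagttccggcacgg
Ncapd2, chr6:125191537-125191836, minus strand: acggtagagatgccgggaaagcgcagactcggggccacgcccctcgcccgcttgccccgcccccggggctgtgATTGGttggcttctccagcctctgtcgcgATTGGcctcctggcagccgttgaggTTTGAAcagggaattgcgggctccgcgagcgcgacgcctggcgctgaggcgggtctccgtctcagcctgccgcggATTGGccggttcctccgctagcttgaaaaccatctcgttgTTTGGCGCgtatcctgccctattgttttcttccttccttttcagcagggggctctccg
In *Cdca8* the CHR word lies at 14 to 19 and shares its last base with the last of 4 inverted CCAAT boxes, the other 3 of which begin at −85, −51 and −11. In *Ncapd2* the CHR word begins at −123, inverted CCAAT boxes begin at −177, −148 and −48, and the E2F word TTTGGCGC ends just before the start. *Smc2* held 2 CHR words, at −145 and 27, and 1 CCAAT box at −119. *Sgo1* and *Smc1a* each held 1 CCAAT box, and *Birc5* and *Smc3* held none of these words. The cohesin pair is shown next because it had the highest Pearson correlation over the 15 mice.
Smc1a, chrX:152016178-152016477, plus strand: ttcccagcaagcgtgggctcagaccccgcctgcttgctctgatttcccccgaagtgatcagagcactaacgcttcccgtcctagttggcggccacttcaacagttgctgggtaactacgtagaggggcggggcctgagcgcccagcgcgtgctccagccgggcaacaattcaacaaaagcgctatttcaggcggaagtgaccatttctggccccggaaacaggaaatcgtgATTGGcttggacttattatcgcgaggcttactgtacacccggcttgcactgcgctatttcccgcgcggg
Smc3, chr19:53600146-53600445, plus strand: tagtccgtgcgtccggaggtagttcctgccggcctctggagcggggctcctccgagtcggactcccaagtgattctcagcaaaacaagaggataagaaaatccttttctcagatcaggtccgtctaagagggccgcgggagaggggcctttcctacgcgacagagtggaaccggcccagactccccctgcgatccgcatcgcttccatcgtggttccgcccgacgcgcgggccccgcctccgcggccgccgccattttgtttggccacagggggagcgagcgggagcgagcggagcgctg
The capitals in *Smc1a* mark its inverted CCAAT box at −19. A match is a run of letters and not evidence of binding.

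None of the 10 genes differed between the groups of mice at an FDR below 0.05 in any of the 3 comparisons (edgeR likelihood ratio test, each with an FDR of 1). In cKO versus ctrl 0 of 10 genes passed, where 0.160% of all listed genes did, and in dKO versus ctrl 0 of 10, where 0.0501% did. Between cKO and dKO it was 0 of 10, where 0.0520% did. At an unadjusted p below 0.05 the count was also 0 of 10 in each comparison, against 4.70% of listed genes in cKO versus ctrl, 3.32% in dKO versus ctrl and 4.16% in cKO versus dKO. The ranges of the groups overlapped for all 10 genes in each comparison, while 0.543%, 0.231% and 1.37% of listed genes, in the same order, had groups that did not overlap. The listed genes include 24518 without any count, which cannot pass. Among the 11532 genes with a mean of at least 10 counts, 10.2%, 5.91% and 4.18% passed an unadjusted p below 0.05, in the same order. At an FDR below 0.05 these shares were 0.581%, 0.191% and 0.139%. With shares of this size, counts of 0 among 10 genes are near the background. The median log fold change of the 10 genes, on the log2 scale, was 0.023 in cKO versus ctrl, 0.014 in dKO versus ctrl and −0.030 in cKO versus dKO. The 2 parts of the set differed in sign. For the passenger genes and *Sgo1* the median was −0.33, −0.068 and −0.21, in the same order. For the cohesin and condensin genes it was 0.12, 0.054 and 0.086. Over the 11532 genes with a mean of at least 10 counts it was 0.039, 0.019 and 0.050. These comparisons share mice and are not independent of each other. In bulk tissue, fewer dividing cells and less RNA per dividing cell cannot be told apart.

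**Figure D1:**
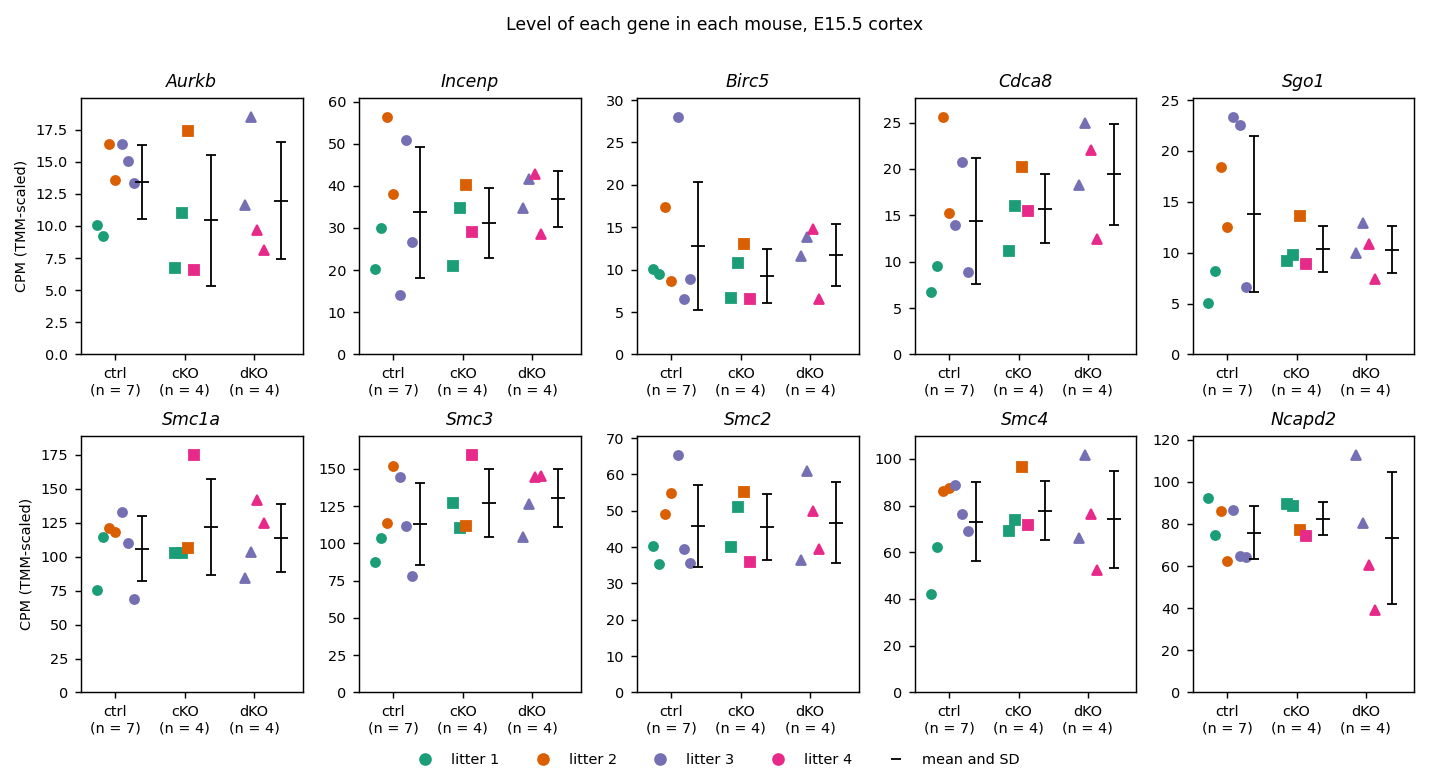
Level of each gene (y axes, TMM-scaled CPM) in each of 15 mice, grouped as ctrl, cKO and dKO, with litters in color and the mean and SD of each group as a black bar. The 3 groups overlap in every panel, and *Smc1a* reaches 175 CPM in 1 cKO mouse of litter 4.

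*Aurkb* (ENSMUSG00000020897, chromosome 11 of GRCm38 from 69045647 to 69051664, 5 merged exons) encodes the kinase of the passenger complex. In ctrl it ranged from 9.18 to 16.4 CPM with a median of 13.6. In cKO mice 5, 7, S2 and F3 it was at 6.70, 11, 17.4 and 6.59 CPM, so that 2 cKO mice lay below the lowest ctrl mouse and S2 above the highest. In dKO mice T2, T8, F1 and F7 it was at 11.6, 18.5, 9.66 and 8.15 CPM. The mean was 13.4 ± 2.86 CPM in ctrl (SD, n = 7), 10.4 ± 5.09 in cKO (SD, n = 4) and 11.97 ± 4.56 in dKO (SD, n = 4). The log fold change was −0.33 in cKO versus ctrl (standard error 0.30, 95% interval −0.91 to 0.26, edgeR FDR of 1), and without cKO mouse S2 it was −0.72 (unadjusted p = 0.00941, edgeR FDR = 0.407). Batch 1 alone gave −0.0016, and a fit with litter as a covariate gave 0.061. In dKO versus ctrl it was −0.26 (95% interval −0.83 to 0.32).

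*Incenp* (ENSMUSG00000024660, chromosome 19 from 9872296 to 9899551, 18 merged exons) encodes the scaffold of the complex and had its highest CPM per kb of annotated exon. It spread widely within ctrl, from 14.0 CPM in T3, where it rested on 6 counts (interval 5.14 to 30.5 CPM), through a median of 30.1 to 56.3 CPM in S3, which rested on 110 counts (46.3 to 67.9 CPM). Levels in cKO mice 5, 7, S2 and F3 were 20.9, 34.8, 40.3 and 29.1 CPM, and in dKO mice T2, T8, F1 and F7 at 34.8, 41.6, 42.9 and 28.5 CPM. All 8 mutant values therefore lay within the ctrl range. Its log fold change was −0.21 in cKO versus ctrl (95% interval −0.68 to 0.26) and 0.031 in dKO versus ctrl (−0.45 to 0.51). In the 11 mice with at least 1000000 counts, a choice made after seeing the data, these were −0.45 (unadjusted p = 0.0513, edgeR likelihood ratio test) and −0.22.

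*Birc5* (ENSMUSG00000017716, chromosome 11 from 117849251 to 117855743, 3 merged exons) encodes survivin. It was between 6.59 and 28.0 CPM in ctrl with a median of 9.50. The highest value, in T3, rested on 12 counts (interval 14.5 to 48.9 CPM). In cKO mice 5, 7, S2 and F3 it was at 6.70, 10.8, 13.1 and 6.59 CPM, and in dKO mice T2, T8, F1 and F7 at 11.6, 13.9, 14.8 and 6.60 CPM. The groups covered the same low range, and T3 and S3 of ctrl, at 28.0 and 17.4 CPM, lay above all mutant mice. The log fold change was −0.36 in cKO versus ctrl (95% interval −0.95 to 0.24) and −0.068 in dKO versus ctrl (−0.74 to 0.60). The former was −0.27 within batch 1 and −0.089 with litter as a covariate, and ranged from −0.58 without cKO mouse S2 to −0.15 without ctrl mouse T3.

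*Cdca8* (ENSMUSG00000028873, chromosome 4 from 124918465 to 124939311) encodes borealin. Of its exon bases, 4.48% are shared with *9930104L06Rik* on the opposite strand, and reads there cannot be told apart without strand. It ranged from 6.72 to 25.6 CPM in ctrl with a median of 14.0. Levels in cKO mice 5, 7, S2 and F3 were 11.2, 16.0, 20.2 and 15.5 CPM, and in dKO mice T2, T8, F1 and F7 at 18.2, 24.9, 22.0 and 12.4 CPM. All mutant values again fell inside the ctrl range, with 3 of 4 dKO mice above the ctrl median. Its log fold change was 0.044 in cKO versus ctrl (95% interval −0.49 to 0.58) and 0.32 in dKO versus ctrl (−0.28 to 0.93).

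*Sgo1* (ENSMUSG00000023940, chromosome 17 from 53674786 to 53689333, 9 merged exons) encodes the guard of centromeric cohesin. In ctrl its lowest value was 5.04 CPM in mouse 2, from 3 counts (interval 1.04 to 14.7 CPM), its median 12.5 and its highest 23.3 CPM in T3. In cKO mice 5, 7, S2 and F3 it was at 9.14, 9.75, 13.7 and 8.86 CPM, and in dKO mice T2, T8, F1 and F7 at 9.95, 12.9, 10.9 and 7.37 CPM. All 8 mutant values lay within the ctrl range, 6 of them below the ctrl median. Its mean was 13.8 ± 7.64 CPM in ctrl (SD, n = 7), 10.4 ± 2.23 in cKO (SD, n = 4) and 10.3 ± 2.31 in dKO (SD, n = 4). The log fold change was −0.41 in cKO versus ctrl (95% interval −0.96 to 0.15) and −0.47 in dKO versus ctrl (−1.13 to 0.19), the lowest of the 10 genes in both. Within batch 1 the first was −0.044, and within batch 3 the second was −0.90 (unadjusted p = 0.027, edgeR FDR of 1). Without ctrl mouse 6 the first was −0.56 (unadjusted p = 0.0388, edgeR FDR = 0.837).

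*Smc1a* (ENSMUSG00000041133, chromosome X from 152016428 to 152062694, 24 merged exons) encodes one arm of the cohesin ring. It was between 68.9 and 133 CPM in ctrl with a median of 115. Levels in cKO mice 5, 7, S2 and F3 were 103, 103, 107 and 175 CPM. The last had an interval of 163 to 188 CPM, above the value of every other mouse. The interval of ctrl mouse T3, at 101 to 172 CPM, overlapped it. In dKO mice T2, T8, F1 and F7 *Smc1a* was at 84.5, 103, 142 and 125 CPM. The 3 mice of litter 4 (F1, F3 and F7) were therefore among the 4 highest of all, beside ctrl mouse T3. Its log fold change was 0.16 in cKO versus ctrl (95% interval −0.17 to 0.49), and −0.073 without F3. In dKO versus ctrl it was 0.12 (−0.19 to 0.43). Between cKO and dKO it was 0.086, and 0.60 within batch 3, where F3 is the lone cKO mouse and is assumed to vary like the others. With litter as a covariate it was 0.41, which again rests on F3 alone, against F1 and F7 of litter 4.

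*Smc3* (ENSMUSG00000024974, chromosome 19 from 53600398 to 53645833, 29 merged exons) encodes the other arm. It ranged from 77.8 to 152 CPM in ctrl with a median of 112. In cKO mice 5, 7, S2 and F3 it was at 127, 111, 112 and 159 CPM, and in dKO mice T2, T8, F1 and F7 at 104, 127, 145 and 146 CPM. As for *Smc1a*, the highest value of the 15 was that of F3, and F1 and F7 were near the top. The log fold change was 0.14 in cKO versus ctrl (95% interval −0.16 to 0.44) and 0.22 in dKO versus ctrl (−0.080 to 0.52). Without ctrl mouse S1 the latter was 0.33 (unadjusted p = 0.0279, edgeR FDR of 1).

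*Smc2* (ENSMUSG00000028312, chromosome 4 from 52439243 to 52488260, 25 merged exons) and *Smc4* (ENSMUSG00000034349, chromosome 3 from 69004738 to 69034623, 23 merged exons) encode the ATPase pair of condensin. *Smc2* ranged from 35.5 to 65.4 CPM in ctrl with a median of 40.3. It was at 40.0, 51.0, 55.3 and 35.9 CPM in cKO mice 5, 7, S2 and F3, and at 36.5, 61.0, 49.8 and 39.6 CPM in dKO mice T2, T8, F1 and F7. All 8 lay inside the ctrl range. *Smc4* ranged from 42.0 to 88.7 CPM in ctrl with a median of 76.2. It was at 69.1, 73.8, 96.6 and 71.6 CPM in cKO mice 5, 7, S2 and F3, and at 66.3, 102, 76.4 and 52.2 CPM in dKO mice T2, T8, F1 and F7. S2 and T8 exceeded every ctrl mouse, and the other mutant mice did not. The log fold changes of *Smc2* were 0.0018 in cKO versus ctrl (95% interval −0.34 to 0.35) and 0.054 in dKO versus ctrl (−0.32 to 0.42). Those of *Smc4* were 0.068 (−0.24 to 0.38) and −0.0027 (−0.37 to 0.37).

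*Ncapd2* (ENSMUSG00000038252, chromosome 6 from 125168007 to 125191701, 30 merged exons) encodes a regulatory subunit of condensin I. It shares 3.78% of its exon bases with the small RNA gene *Scarna10* on the same strand, so part of its count is uncertain. It was between 62.4 and 92.4 CPM in ctrl with a median of 74.7. Levels in cKO mice 5, 7, S2 and F3 were 89.6, 88.5, 77.2 and 74.1 CPM, the tightest group of the 3 with a coefficient of variation of 9.52%. In dKO mice T2, T8, F1 and F7 it was at 113, 80.4, 60.4 and 39.2 CPM, a coefficient of variation of 42.7%. T2 stood above every ctrl mouse, and F1 and F7, both of litter 4, below every ctrl mouse. Its log fold change was 0.12 in cKO versus ctrl (95% interval −0.15 to 0.38) and −0.12 in dKO versus ctrl (−0.52 to 0.28). With litter as a covariate the latter was 0.43, resting on litter 3 alone, which held both groups. In cKO versus dKO the log fold change was 0.26 (−0.20 to 0.72), and leaving out T2 gave 0.51 (unadjusted p = 0.0154, edgeR FDR = 0.85). There, litter as a covariate gave 0.61, which rests on F3 alone against F1 and F7 of litter 4.

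**Figure D2:**
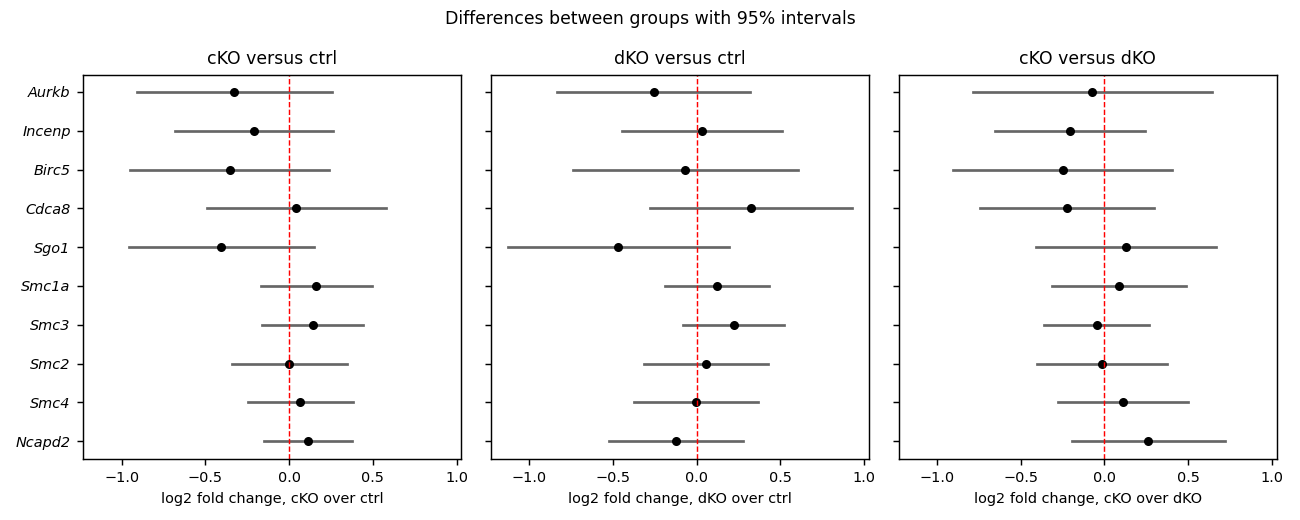
Log fold change on the log2 scale (x axes) of each gene (y axis) in each of the 3 comparisons, one panel each, with 95% intervals as bars. Every interval holds 0, and those of the passenger genes and *Sgo1* are wider than those of the *Smc* genes.

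The precision of these comparisons differed between the genes. For *Ncapd2*, the interval in cKO versus ctrl ran from 0.903 to 1.30 on the scale of folds, and for *Smc3* from 0.894 to 1.36. For *Aurkb* it ran from 0.533 to 1.19, and for *Sgo1* from 0.515 to 1.11. Counting error alone gave an SD of 4.10 CPM for *Aurkb* in ctrl, above the observed SD of 2.86, whereas in the deeper cKO mice it gave 1.38 CPM against an observed 5.09. For *Smc1a* in cKO, counting gave 4.96 CPM against an observed 35.5. The spread of *Smc1a* there came from F3, as the other 3 cKO mice lay between 102.8 and 106.7 CPM. In cKO versus dKO the log fold changes of the other genes were −0.073 for *Aurkb*, −0.21 for *Incenp*, −0.25 for *Birc5*, −0.23 for *Cdca8* and 0.13 for *Sgo1*. Those of *Smc3*, *Smc2* and *Smc4* were −0.046, −0.015 and 0.11. All of these intervals held 0.

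To compare levels between genes, CPM was divided by the length of all annotated exons of a gene in kb. This length joins the exons of every annotated isoform and can exceed that of a single mRNA. It was 2946 bases for *Aurkb*, 3402 for *Birc5* and 4329 for *Incenp*. Lengths of single mRNAs were not used, and the order could differ with them. Over the 15 mice, *Smc3* came first at 21.9 ± 4.35 CPM per kb (SD) and *Smc1a* next at 19.5 ± 4.59. *Smc4* followed at 14.3 ± 3.07, *Ncapd2* at 12.3 ± 2.77 and *Smc2* at 8.39 ± 1.81. *Incenp* was at 7.84 ± 2.66 CPM per kb, *Aurkb* at 4.15 ± 1.32, *Birc5* at 3.39 ± 1.65, *Sgo1* at 3.14 ± 1.45 and *Cdca8* at 3.11 ± 1.12. Per kb of annotated exon the cohesin arms were thus the highest, and *Sgo1* and the passenger subunits other than *Incenp* the lowest. The steps from *Smc1a* to *Smc4*, from *Ncapd2* to *Smc2* and from *Incenp* to *Aurkb* were larger than the SD over mice of either gene. Those between other neighbors in this order were not, but this SD ignores that both genes were measured in the same mouse. Within mice, *Smc1a* was above *Smc4* in 12 of 15 and *Ncapd2* above *Smc2* in 13. Among the other steps, *Smc3* was above *Smc1a* in 12 of 15 and *Aurkb* above *Birc5* in 13, while *Sgo1* was above *Cdca8* in 7. The scaffold *Incenp* was above its kinase *Aurkb* per length in 14 of 15 mice, the exception being T3 with a ratio of 0.583.

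The arms of the cohesin ring stood in fairly steady proportion. The level of *Smc1a* over that of *Smc3*, per length, was 0.906 ± 0.111 in ctrl (SD, n = 7), 0.910 ± 0.114 in cKO (SD, n = 4) and 0.833 ± 0.0771 in dKO (SD, n = 4). *Smc4* exceeded *Smc2* in every mouse, by a ratio of 1.71 ± 0.342 in ctrl, 1.82 ± 0.236 in cKO and 1.67 ± 0.223 in dKO (SD). That ratio varied from 1.10 in ctrl mouse 2 to 2.10 in cKO mouse F3. *Ncapd2* over *Smc4* was looser, at 0.936 ± 0.413 in ctrl, 0.900 ± 0.181 in cKO and 0.838 ± 0.384 in dKO (SD). It ran from 0.594 in ctrl mouse S1 to 1.83 in ctrl mouse 2. These ratios overlapped between the groups.

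**Figure D3:**
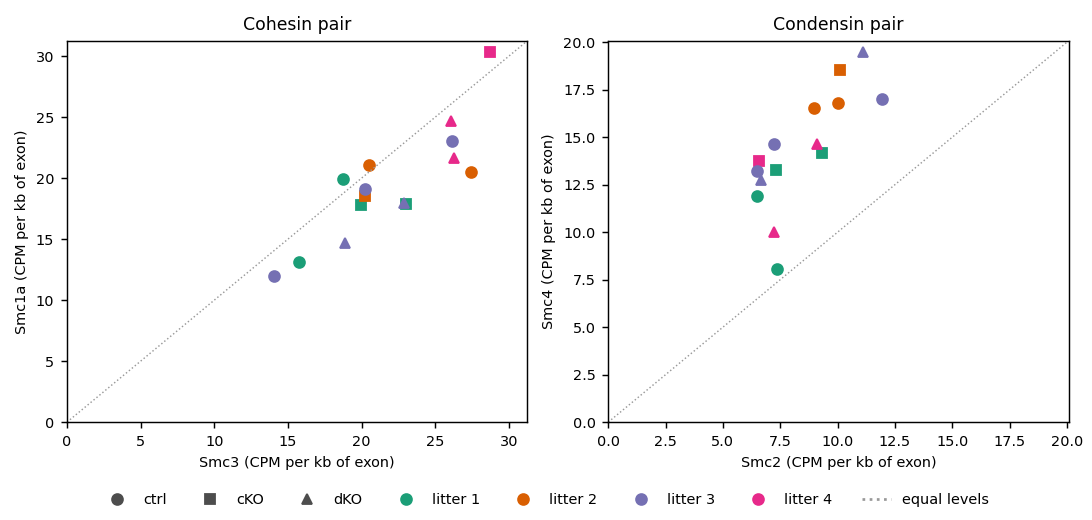
Level per length (CPM per kb of exon, both axes) of *Smc1a* against *Smc3* and of *Smc4* against *Smc2* in 15 mice, with shapes for groups, colors for litters and a dotted line of equal levels. *Smc1a* lies near the line in all mice and *Smc4* above it, at ratios from 1.10 to 2.10.

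Within the set, some genes varied together over the mice. The values that follow are Pearson correlations of log2 CPM (prior count of 2) over 15 mice, given as a description. The mice share litters, batches and depth. The highest r over all 15 mice was that of *Smc1a* and *Smc3*, at 0.877, with a Spearman's rho of 0.804. After subtracting each litter's mean r was 0.793, and without the 2 mice farthest from the median of *Smc1a* it was 0.786. By the other measures it was not the closest pair. *Incenp* and *Cdca8* had a higher rho (0.875) and a higher r in the 11 deeper mice (0.846 against 0.680), and *Sgo1* and *Smc1a* a higher r within litters (0.849), against 0.404 over all mice. *Smc4* went with *Cdca8* (r of 0.756, rho of 0.682), *Sgo1* (0.747, 0.839) and *Smc2* (0.692, 0.768). *Incenp* went with *Cdca8* (0.730, 0.875). Without the 2 mice farthest from the median of the first-named gene of each pair, r was 0.637 for *Cdca8* and *Smc4*, 0.864 for *Sgo1* and *Smc4*, 0.596 for *Smc2* and *Smc4*, and 0.845 for *Incenp* and *Cdca8*. Of the condensin genes, *Smc2* and *Smc4* therefore varied with most of the passenger genes and *Sgo1*. The exception was *Smc2* with *Incenp*, at r of 0.058 over all mice and 0.497 in the 11 deeper mice. Over the 10 pairs of *Smc2* or *Smc4* with a passenger gene or *Sgo1* the median r was 0.613, and over the 10 pairs of *Smc1a* or *Smc3* with the same genes it was 0.106. *Ncapd2* stood apart, with r from −0.338 to 0.38 with the other 9 genes.

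These correlations changed with the mice used and with litter means subtracted, and the reason was not tested. The mice left out for depth were ctrl mice 2, T3 and T5 and dKO mouse T2, so litter and group changed along with depth. In the 11 mice with at least 1000000 counts the median r among the passenger genes and *Sgo1* was 0.736, against 0.490 over all 15, and every one of their 10 pairs was between 0.331 and 0.846. There, *Aurkb* and *Incenp* had r of 0.817, against 0.346 over 15 mice. Over the same 11 mice, the pairs of *Smc1a* or *Smc3* with these genes had a median r of −0.262 and those of *Smc2* or *Smc4* 0.645. Within litters these medians were 0.235 and 0.44, closer together and both above 0. After subtracting each litter's mean, the median among the passenger genes and *Sgo1* was 0.318. The shallowest mice had as few as 3 counts for *Sgo1* and 4 for *Birc5* and *Cdca8*.

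**Figure D4:**
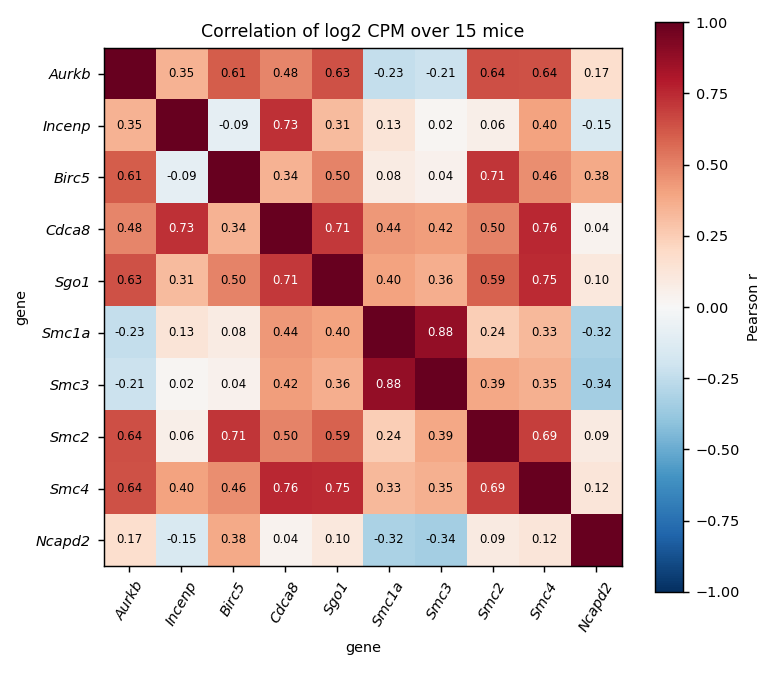
Pearson r of log2 CPM between the genes (rows and columns) over 15 mice, from −1 in blue to 1 in red. *Smc1a* and *Smc3* have the highest value at 0.88, and *Ncapd2* goes with no other gene above 0.38. *Smc2* and *Smc4* go with most of the passenger genes and *Sgo1*, but *Smc2* and *Incenp* are at 0.06.

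The litters differed in a way that cut across the genotypes. Summed over the 4 passenger genes and *Sgo1*, the level in litter 1 was 52.1 and 66.5 CPM in ctrl mice 2 and 6, and 54.6 and 82.3 CPM in cKO mice 5 and 7. In litter 2 it was higher in each of the 3 mice, at 88.0 and 134 CPM in ctrl mice S1 and S3 and 105 CPM in cKO mouse S2. In litter 3 it was 95.7, 116 and 64.5 CPM in ctrl mice T3, T4 and T5, and 86.2 and 112 CPM in dKO mice T2 and T8. Litter 4 had 66.6 CPM in cKO mouse F3, and 100.2 and 63.1 CPM in dKO mice F1 and F7. *Aurkb* shows this clearly. It was between 6.70 and 11 CPM in all 4 mice of litter 1, between 13.6 and 17.4 in the 3 of litter 2 and between 6.59 and 9.66 in the 3 of litter 4. In litter 3 it was between 11.6 and 18.5 CPM. *Smc3* was at 145 to 159 CPM in litter 4 and at 87.3 to 127 CPM in litter 1, while litter 2 (112 to 152 CPM) and litter 3 (77.8 to 145 CPM) overlapped both. Litter and genotype are only partly separable, because no litter held all 3 genotypes.

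Among the 7442 genes with a mean of at least 50 counts per mouse, those whose log2 CPM went most closely with the mean of the 4 passenger genes and *Sgo1* were *Syne2*, which encodes a nuclear envelope protein, with r of 0.906, the linker histone gene *Hist1h1b* with 0.901, the cell cycle transcription factor gene *E2f3* with 0.898, *Tpm4* with 0.890 and the histone gene *Hist2h2ac* with 0.882. Those closest to the mean of the cohesin and condensin genes were *Gkap1* with 0.896, the chromatin remodeling gene *Smarce1* with 0.891, *Rtf2* with 0.843, the Smc5–Smc6 ligase gene *Nsmce2* with 0.839 and *Uvssa* with 0.839. They were ranked over the same 15 mice, and none of these 10 differed between groups at an FDR below 0.05.

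The wider machinery was followed in 36 partner genes, all of them with counts. In cKO versus ctrl 0 were higher and 1 lower at an unadjusted p below 0.05, and none passed at an FDR below 0.05. The median log fold change was −0.097, against 0.039 over the genes with a mean of at least 10 counts. The gene was *Smc1b*, which encodes a meiotic cohesin arm, at no more than 6 counts in any mouse (log fold change −1.48, unadjusted p = 0.0294, edgeR FDR = 0.852). In dKO versus ctrl 0 were higher and 1 lower, again with none at an FDR below 0.05 and a median of −0.16. That gene was *Sgo2a*, the other shugoshin, at 26.7 ± 8.26 CPM in ctrl (SD, n = 7) and 19.9 ± 4.37 in dKO (SD, n = 4). The difference was −0.50 on the log2 scale (standard error 0.24, unadjusted p = 0.0401, edgeR FDR of 1). In cKO versus dKO 2 were higher and 0 lower. They were *Sgo2a*, with 0.47 (unadjusted p = 0.0339), and *Hdac8*, which encodes the deacetylase that recycles SMC3, with 0.29 (unadjusted p = 0.0293), both with an edgeR FDR of 1. Against the 4.70%, 3.32% and 4.16% of all listed genes that passed the same threshold in these comparisons, 1, 1 and 2 of 36 partner genes are near the background. Among the genes with a mean of at least 10 counts, the shares were 10.2%, 5.91% and 4.18%. The 1 of 36 in cKO versus ctrl is under its share, but it is a small count and is not read as a result. *Smc1b* itself falls under that mean.

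By complex, the 9 passenger and centromere partners had a median log fold change of −0.28 in cKO versus ctrl and −0.28 in dKO versus ctrl, with 8 of 9 values below 0 in each. Among them *Bub1*, the kinase docked by KNL1, was at 28.0 ± 8.46 CPM in ctrl, 20.8 ± 8.44 in cKO and 25.9 ± 10.8 in dKO (SD). The kinesin gene *Kif20a* was at 15.7 ± 4.98, 14.2 ± 5.52 and 13.6 ± 6.58 CPM (SD) in the same order. The 17 cohesin partners had medians of −0.0019 and −0.038, and the 8 condensin partners −0.17 and −0.17, with 7 of 8 values below 0 in each. Of 10 markers of cycling cells, given below, 9 were also below 0 in each, with medians of −0.15 and −0.14. The share of all genes below 0 was not counted. The passenger and centromere partners include *Aurkc*, at no more than 2 counts in any mouse and at 0 in all dKO mice. It was above 0 in cKO versus ctrl. The kleisin gene of cohesin, *Rad21*, was at 177 ± 30.7, 181 ± 26.4 and 187 ± 17.2 CPM in ctrl, cKO and dKO (SD). That of condensin I, *Ncaph*, was at 40.5 ± 9.36, 36.0 ± 11.03 and 35.4 ± 12.7 CPM in the same order (SD). These 4 partners were picked for their roles after their values were seen. The comparisons with ctrl share the same ctrl mice.

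**Figure D5:**
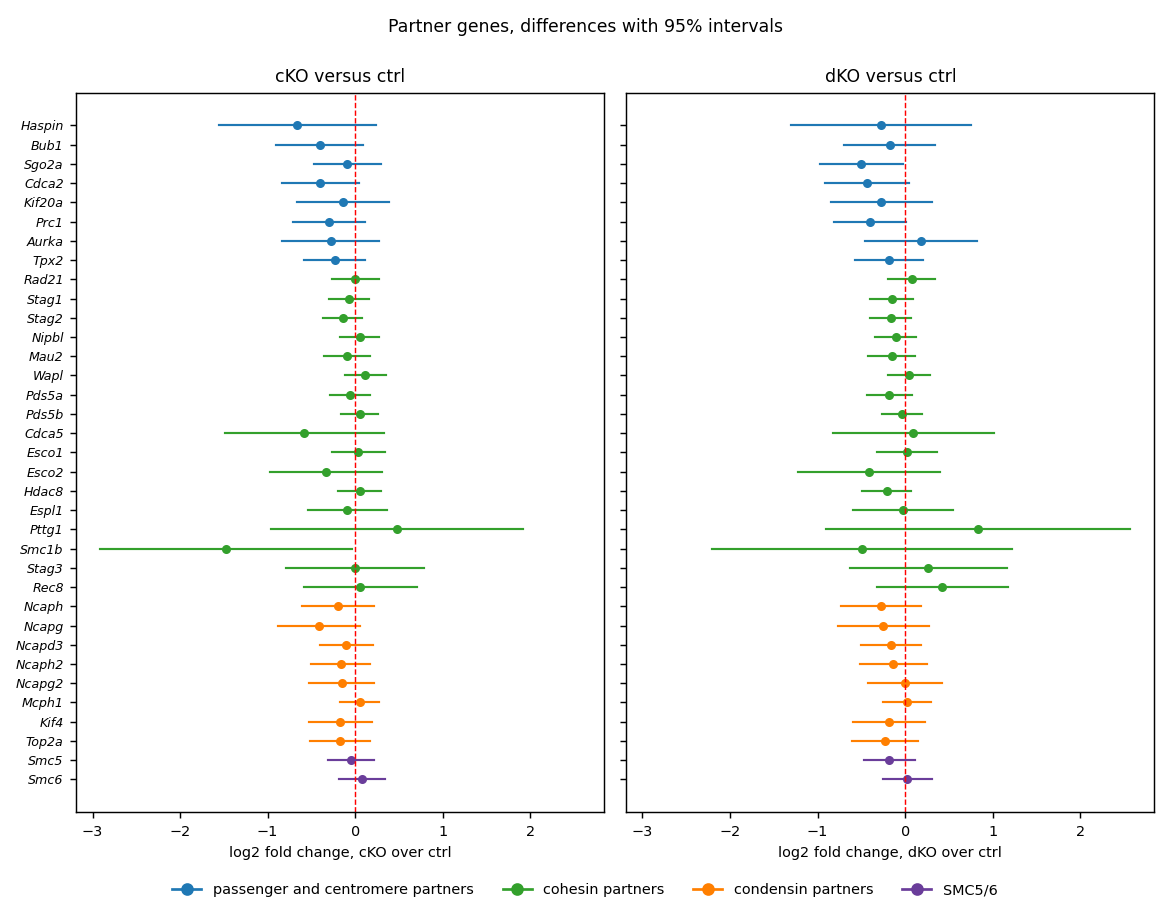
Log fold change on the log2 scale (x axes) of 35 partner genes (y axis) in cKO versus ctrl and dKO versus ctrl, with 95% intervals as bars and colors for the complex. *Aurkc*, which had no standard error in dKO versus ctrl, is left out. The bars hold 0 except that of *Smc1b* in cKO and that of *Sgo2a* in dKO.

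*Knl1* itself was at 62.8 ± 13.5 CPM in ctrl, 58.2 ± 14.8 in cKO and 49.8 ± 11.6 in dKO (SD), and *Trp53* at 30.5 ± 10.6, 28.3 ± 4.26 and 25.1 ± 5.26 CPM. Neither difference from ctrl passed in these whole-gene counts (edgeR FDR of 1). Of 10 markers of cycling cells, 0 passed an unadjusted p below 0.05 in cKO versus ctrl and 2 were lower in dKO versus ctrl, *Ccna2* (unadjusted p = 0.00419, edgeR FDR = 0.853) and *Bub1b* (unadjusted p = 0.00652, edgeR FDR = 0.989). Together they summed to 405 to 775 CPM in ctrl mice, 446 to 669 in cKO mice and 402 to 667 in dKO mice. Of 8 markers of intermediate progenitors, 3 were lower in cKO than in ctrl at an unadjusted p below 0.05, of which *Eomes* and *Neurog2* also passed at an FDR below 0.05. In dKO versus ctrl 4 of the 8 were lower at an unadjusted p below 0.05 and 0 at an FDR below 0.05. Their summed level was 450.2 to 551 CPM in ctrl, 344 to 493 in cKO and 363 to 477 in dKO. Of 9 interneuron markers, 8 were higher in cKO at an unadjusted p below 0.05, *Gad1* also at an FDR below 0.05, and the sum was 653 to 1411 CPM in ctrl, 1162 to 1553 in cKO and 918 to 1332 in dKO. Among 10 markers of apical progenitors, 5 passed an unadjusted p below 0.05 as lower in cKO, and 0 an FDR below 0.05. The choroid plexus gene *Ttr* was lower in cKO and the hemoglobin gene *Hba-a2* higher in dKO at an FDR below 0.05, and no marker of excitatory neurons, microglia or endothelium passed at that level. *Sox2* was listed at 0 in all mice, so 9 of the 10 apical progenitor markers had counts to test. The study stained SOX2 protein in apical progenitors at this age, so the 0 is not read as absence of expression. Its reason was not tested. Whether these shifts in cell types or tissue had a part in the levels above was not tested.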

How the data were processed

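Cortical RNA of 15 mice was sequenced in 16 libraries by rRNA-depleted ClickSeq with UMIs. The authors deposited raw counts per gene for each library. Per the submitters' processing notes they used bcl2fastq 2.17, UMI-tools 0.5.3, cutadapt 1.13, STAR 2.5.2a, HTSeq 0.6.1p1 and edgeR 3.18.1 with mm10. Reads were assigned by htseq-count in its intersection-nonempty mode, and reads that mapped poorly or to several places were dropped, so RNA of near-identical genes may be undercounted. The strand setting and the annotation release are not given in the sources used here. The 5 summary lines of each table were left out of totals and tests; they held, among others, 5.86 to 13.3% of a library without a feature and 2.06 to 2.33% as ambiguous.

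Libraries S2 and S2b of one cKO mouse (chi-square per degree of freedom of 1.14 over 13658 genes) were summed and counted once. Group, litter, batch and sex came from the labels, which mark the samples as separate mice. Differences were tested with edgeR 4.0.16 in R 4.3.3 (TMM, estimateDisp, glmFit and glmLRT, no filter, no covariate) on the 2 groups compared, with Benjamini-Hochberg adjustment over all 51912 listed genes. Standard errors came from the negative binomial information matrix, and 95% intervals are 1.96 standard errors to each side. The test was checked on simulated counts with known changes. Correlations used log2 CPM with a prior count of 2. Symbols were matched for 51633 gene IDs, and exon lengths came from the GENCODE annotation of GRCm38.

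The genes, partner and marker lists were chosen with earlier results of these data known. All 10 genes were named throughout, partner genes at an unadjusted p below 0.05, at most 2 genes per marker list, and the 5 genes most alike to the passenger genes with *Sgo1* and to the cohesin and condensin genes. Alternatives were another test or tool (quasi-likelihood, DESeq2 1.42.0), scaling, filtering, covariates, subsets of mice and leaving out each mouse. Leaving out the 4 mice with under 1000000 counts, and centring correlations on groups or litters, were added after seeing the data.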

Additional observations from a re-analysis of the deposited data

Results flagged for a closer look

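Of 30 sets of 4 or 7 mice tested for a mouse far from the others (10 genes in 3 groups), 2 stood out, and about 1 in 20 would by chance. One was F3 of cKO, with *Smc1a* at 175 CPM against 102.8 to 106.7 CPM in its 3 group mates, so that the gap took a share of 0.945 of the range, above the critical value of 0.829. Without F3 the log fold change of *Smc1a* was −0.073 in cKO versus ctrl and −0.16 in cKO versus dKO. *Smc4* was at 96.6 CPM in cKO mouse S2, while the others were between 69.1 and 73.8 CPM, at the edge of the same critical value. Without S2 its log fold change was −0.059 in cKO versus ctrl and −0.037 in cKO versus dKO. F3 was the only cKO mouse of litter 4, and S2 the only one of litter 2 and the deepest of all. The part of litter and depth in these values was not tested.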

How the results depend on the processing

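None of the 690 alternative fits of the 10 genes passed at an FDR below 0.05 (smallest 0.407), and 12 passed an unadjusted p below 0.05. The count of genes with an unadjusted p below 0.05 was 0 or 1 when mice were left out in turn. It was otherwise 1 in dKO versus ctrl with batch as a covariate and in batch 3 alone. In cKO versus dKO it was 1 with the quasi-likelihood test, with batch as a covariate, in batch 3 alone and in mice with at least 1000000 counts, and 2 with litter as a covariate. The sign changed in 80 of the 690 fits, and the cause was not tested. The fits are not all distinct. In cKO versus dKO only T2 was under 1000000 counts, so leaving it out and keeping the deeper mice are the same fit.

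The number of all listed genes at an FDR below 0.05 varied more. In cKO versus ctrl it was 83, and 352 with the quasi-likelihood test, 138 with DESeq2, 138 after filterByExpr, 49 with all 3 groups in 1 fit, 16 against wild-type ctrl mice, 13 in batch 1 and 52 in mice with at least 1000000 counts. In dKO versus ctrl it was 26, and in the order of the first 5 of these settings 113, 8, 14, 14 and 17, with 17 for batch and 4 for litter as a covariate. In cKO versus dKO it was 27, and 184 with the quasi-likelihood test, 7 with DESeq2, 61 without TMM, 14 after filterByExpr, 14 with all 3 groups, 3 with batch and 44 with sex as a covariate, 1 in batch 3 and 62 in mice with at least 1000000 counts. Leaving out 1 mouse at a time it was 17 (without cKO mouse 5) to 373 (without cKO mouse S2), 17 to 59 and 6 to 179, in the same order of comparisons.

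The log fold changes whose sign differed from the value above were the following. With DESeq2 and its own size factors, the value was −0.047 for *Smc2* in cKO versus ctrl. With RLE size factors in edgeR, it was −0.043 for *Smc2* in cKO versus ctrl. Scaled by library totals without TMM, the value was −0.045 for *Cdca8*, −0.090 for *Smc2* and −0.026 for *Smc4* in cKO versus ctrl, −0.0037 for *Incenp* in dKO versus ctrl, −0.024 for *Smc1a* in cKO versus dKO. After filterByExpr, it was −6.2e-06 for *Cdca8* and −0.047 for *Smc2* in cKO versus ctrl. With litter as a covariate, the value was 0.061 for *Aurkb*, 0.030 for *Sgo1* and −0.079 for *Smc1a* in cKO versus ctrl, 0.081 for *Aurkb*, 0.059 for *Birc5*, −0.13 for *Smc1a*, 0.17 for *Smc4* and 0.43 for *Ncapd2* in dKO versus ctrl, 0.15 for *Smc3* in cKO versus dKO. With S2 alone for its mouse, it was −0.017 for *Smc2* in cKO versus ctrl. With wild-type ctrl mice only, the value was −0.044 for *Smc2* in cKO versus ctrl, −0.023 for *Smc2* in dKO versus ctrl. In batch 1 alone, it was −0.038 for *Smc1a* in cKO versus ctrl. In mice with at least 1000000 counts, the value was −0.12 for *Cdca8* in cKO versus ctrl, −0.22 for *Incenp* and 0.070 for *Birc5* in dKO versus ctrl, −0.030 for *Smc1a* in cKO versus dKO. With the quasi-likelihood F test, it was −0.0016 for *Incenp* in dKO versus ctrl, 0.0090 for *Aurkb* in cKO versus dKO. With sex as a covariate, the value was 0.0061 for *Smc4* in dKO versus ctrl. With batch as a covariate, it was −0.12 for *Sgo1*, 0.27 for *Smc3* and −0.011 for *Smc4* in cKO versus dKO. With S2b alone, the value was 0.0060 for *Smc2* in cKO versus dKO. In batch 3 alone, it was −0.13 for *Sgo1*, 0.28 for *Smc3* and −0.012 for *Smc4* in cKO versus dKO. Leaving out 1 mouse at a time in cKO versus ctrl gave log fold changes of −0.12 to 0.29 for *Cdca8*, −0.073 to 0.26 for *Smc1a*, −0.11 to 0.10 for *Smc2* and −0.059 to 0.13 for *Smc4*. Leaving out 1 mouse at a time in dKO versus ctrl gave log fold changes of −0.083 to 0.20 for *Incenp*, −0.30 to 0.23 for *Birc5*, −0.015 to 0.20 for *Smc1a*, −0.072 to 0.16 for *Smc2*, −0.19 to 0.17 for *Smc4* and −0.38 to 0.11 for *Ncapd2*. Leaving out 1 mouse at a time in cKO versus dKO gave log fold changes of −0.45 to 0.20 for *Aurkb*, −0.077 to 0.23 for *Sgo1*, −0.16 to 0.19 for *Smc1a*, −0.18 to 0.018 for *Smc3*, −0.15 to 0.11 for *Smc2* and −0.051 to 0.29 for *Smc4*.

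Low depth left few counts for the passenger genes and *Sgo1* in the 4 mice with under 1000000 counts. Spread beyond counting error was also seen, as for *Aurkb* in the deeper cKO mice, with an SD of 5.09 CPM against 1.38 CPM from counting. Mice of different groups share no replicate number in the labels. No paired analysis was possible because the numbers given to mice are names, and litter as a covariate was tried instead.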
